A study of Drosophila melanogaster with 9 samples.

Results

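Forced expression of Blimp-1 in the developing Drosophila eye was compared with driver-only controls over the 710 genes that the authors listed for that comparison, out of 904 distinct genes listed in the whole series. All rows of the authors' tables of genes lower and higher in overexpression were taken, 196 lower and 514 higher. Retinas with optic lobes were dissected from pupae at 48 h after puparium formation (APF), aged at 25 °C, with other brain tissue removed. Overexpression animals carried lGMR-GAL4 and UAS Blimp-1, and control animals were lGMR-GAL4/+, so the GAL4 driver was present in both groups and the control genotype as labelled held no UAS insert. The remaining genotype of the series, lGMR-GAL4 with Blimp-1 RNAi, was compared with the same control libraries and enters here only in side-by-side values. Each group had 3 biological replicates, and polyadenylated RNA was sequenced from stranded libraries made from 250 ng of total RNA.

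The product of Blimp-1 is the fly counterpart of mammalian Prdm1, a zinc finger protein that represses transcription, and its expression follows pulses of the moulting hormone ecdysone. In prepupae it is known to delay expression of the nuclear receptor gene ftz-f1 and thereby to set the timing of later steps. The lGMR-GAL4 driver is active in the developing eye, where at mid-pupal stages photoreceptors build their light-sensing organelles while cone and pigment cells lay down the corneal lens, a chitin-containing cuticle. Optic lobe neurons and glia were sampled in the same libraries, so a change cannot be placed in either tissue, and fewer cells of a type cannot be told apart from less RNA per cell.

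Because the tables hold only genes that the authors had selected on these same libraries, the ratios below describe the listed genes and carry no new test. Values are normalized counts per library, given in the order replicate 1, 2 and 3. Folds are ratios of group means, and levels of different genes are not per length. The number of genes tested is not known, and a gene without an entry has no value. Over the listed genes, library profiles on a log2 scale correlated at 0.966 to 0.989 among overexpression replicates and at 0.971 to 0.981 among control replicates. Overexpression replicate 2 stood apart from replicates 1 and 3. It held the highest of the 3 overexpression values in 305 of the 514 higher genes (59.3%) and the lowest in 113 of the 196 lower genes (57.7%).

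Blimp-1 itself (FBgn0035625, dm6 chromosome 3L, 5630983 to 5652094) had 23252, 9467 and 18277 normalized counts in overexpression, against 874.0, 887.7 and 748.5 in control. All overexpression libraries lay above all control libraries, and replicate 2 held the least Blimp-1 of the 3. The exonic length of Blimp-1 is 8461 bases. In the longest of 3 length groups of listed genes, replicate 2 deviated by a median log2 of -0.40, and by -0.14 among higher genes. The part of this in its Blimp-1 value was not tested. The means were 16999 ± 6980 in overexpression and 836.7 ± 76.7 in control (SD, n = 3 each), a 20.3-fold difference (log2 4.34, SE 0.35). In the authors' deposited table it had an adjusted p of 2.87e-38. Transcripts from the endogenous locus and from the UAS construct cannot be told apart in these values. As a check of the labelled tissue, the photoreceptor gene boss averaged 9081 normalized counts in overexpression and 3825 in control. The eye pigment genes bw and cd were counted in every library.

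Most listed genes were higher in overexpression, 514 of 710 (72.4%), and 196 (27.6%) were lower. The listed genes did not overlap between the groups in 708 of 710 cases (99.7%), and limma, fitted to log2(normalized count + 1) over the listed genes, called all 710 (100%) at a Benjamini-Hochberg adjusted p under 0.05. Both shares follow from the selection and say nothing further about the genes. The 2 exceptions were dpy and stum. For dpy, encoding a giant extracellular matrix protein, overexpression held 5896, 2249.17 and 5010 normalized counts, against 2249.18, 1525 and 1597 in control. Overexpression replicate 2 fell just below control replicate 1. For stum, the same pair overlapped, with 88.0 in overexpression replicate 2 and 89.4 in control replicate 1.

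The higher genes reached larger folds than the lower genes. The median fold was 4.21 among higher genes and 3.17 among lower genes (log2 ratios of 2.07 and -1.66). A fold of 50 or more was seen in 25 higher genes and 1 lower gene. A fold of 10 or more, or a listing at 0 in 1 group, was found for 107 of 514 higher genes (20.8%) and 17 of 196 lower genes (8.67%). In 236 higher and 133 lower genes the fold was between 2 and 4. Among the genes closest to the threshold by deposited log2 fold change were Fmo-2, a flavin-containing monooxygenase gene, and Fbw5. By the ratios of means used here they were 2.33-fold higher and 2.14-fold lower. In all 705 genes with values in both groups the deposited value was no farther from 0 than the log2 ratio (tolerance 0.01). No gene outside the threshold has a value. The summed normalized counts of the higher genes were 1548110, 1514550 and 1338390 in overexpression, against 294024, 309401 and 313950 in control. Those of the lower genes were 199213, 172271 and 195019 in overexpression, against 744967, 623313 and 640814 in control.

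**Figure D1:**
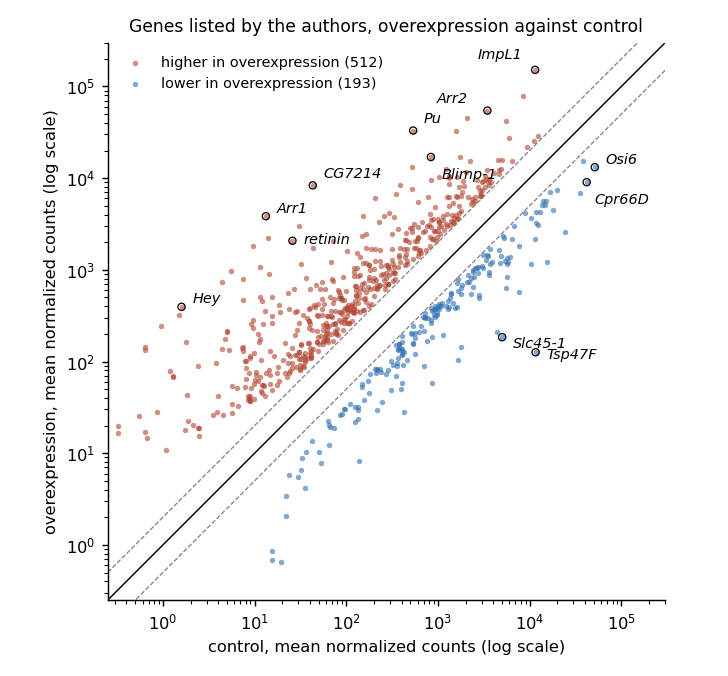
Mean normalized counts in overexpression (y axis) and in control (x axis), both on log scales, for the 705 listed genes with values in both groups. The solid line marks equal values and the dashed lines 2-fold differences. Higher genes reach 289.4-fold with Arr1, and the lower gene farthest from the line is Tsp47F at 91.9-fold.

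A few genes were at or near 0 in 1 group. CG33946 and CR44157 were listed at 0 in all control libraries, with up to 21.7 and 10.2 normalized counts in overexpression. CR43086, CR45386 and CG1137 were listed at 0 in all overexpression libraries, and had at most 18.7 normalized counts in any control library. Cp19, annotated by the authors as extracellular and known as a chorion gene of the eggshell, had 250.5, 333.0 and 143.0 normalized counts in overexpression, against 0, 2.88 and 0 in control. No fold is given for these 6 genes.

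The function column of the authors' tables divides the genes into 11 classes. Transporters leaned most to the higher side among classes with members on both sides, with 46 higher and 6 lower (88.5% higher, against 72.4% of all listed genes). All 21 genes marked extracellular were higher. Enzymes, the most frequent class with 251 genes, were higher in 77.7% of cases, and genes of unknown function in 105 of 140. Cell surface genes were more evenly divided, with 47 higher and 32 lower (59.5% higher). Transcription factors were the only class with more lower than higher members, 14 higher and 15 lower (48.3% higher), and secreted genes had 10 of each. The sources used here do not say how these words were assigned, and "extracellular" and "secreted" were kept apart as in the tables.

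**Figure D2:**
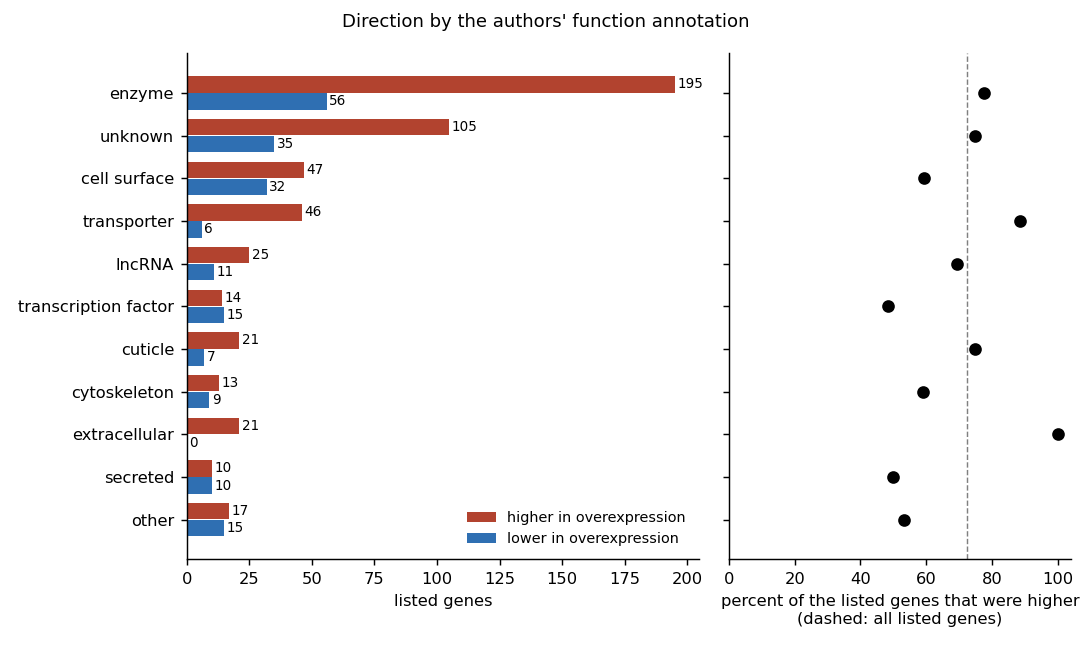
Listed genes per function word of the authors (left, number of genes higher and lower in overexpression) and the percentage of each class that was higher (right, points). The dashed line marks 72.4% for all listed genes, and classes run from 48.3% for transcription factors to 100% for extracellular genes.

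The cuticle class had the largest median fold of the 11 classes among higher genes, 9.92 over 21 genes, against 4.21 for all higher genes. Its lead member, CG7214 (chromosome 2L, 7743682 to 7744839), had 12196, 6667 and 6166 normalized counts in overexpression, against 33.6, 55.7 and 39.9 in control. No library of the groups came near the other, and the fold was 193.8. Among enzymes, Ser7, a serine protease gene, was 187.0-fold higher at 1663, 2262 and 1511 normalized counts in overexpression, against 4.70, 14.4 and 9.98 in control. CG5379 was 97.5-fold higher and CG9743 39.4-fold higher. Among transporters, Ctr1B, a copper importer gene, was 25.1-fold higher, CG14439 22.4-fold and CG13646 22.1-fold. The lower transporter gene Slc45-1, of a sugar transporter family, had 150.3, 220.7 and 181.8 normalized counts in overexpression, against 5395, 4674 and 4954 in control. That was 27.2-fold lower, with an adjusted p of 2.12e-91 in the authors' deposited table, the smallest among lower genes.

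The authors also gave a stage of peak expression for many genes, written as a pupal or prepupal age. The direction differed by that stage. Of genes marked white prepupa, 43 of 46 were higher (93.5%), and of genes marked 12 h prepupa, 47 of 61 (77.0%). The share was 64.5% of 31 genes at 1 d and reached its lowest value at 2 d, where 52 genes were higher and 58 lower (47.3%). It was 74.2% of 97 genes at 3 d and 90.7% of 86 genes at 4 d. The 2 d label is the age nearest to the 48 h APF at which these animals were dissected. The 249 genes with no entry lay near the share of all genes, at 71.1%.

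**Figure D3:**
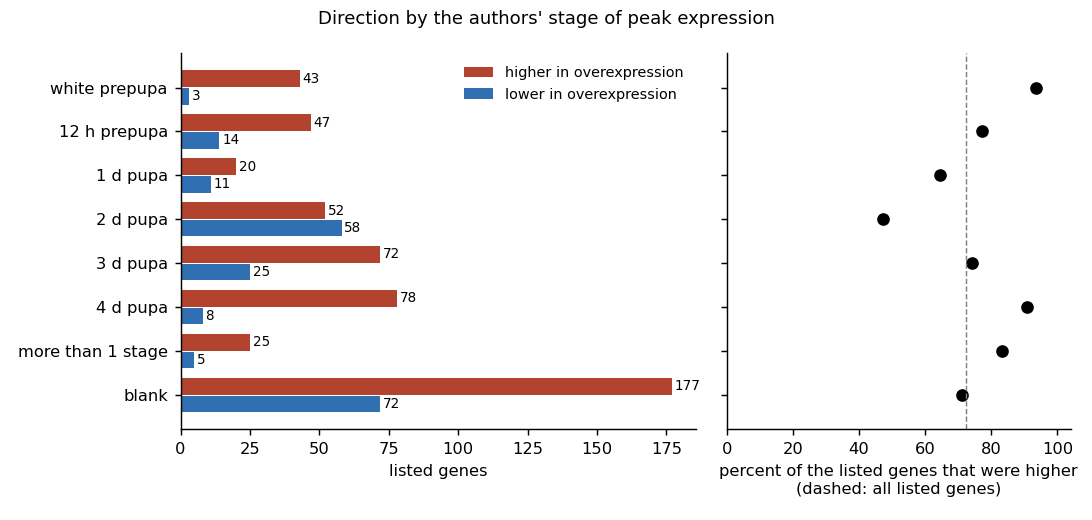
Listed genes per stage of peak expression as the authors gave it (left, number higher and lower in overexpression) and the percentage higher (right, points; dashed line, 72.4% of all listed genes). The share is lowest for 2 d pupa at 47.3% and highest for white prepupa at 93.5%, with 4 d pupa at 90.7%.

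Folds of 10 or more were most frequent among genes marked as peaking after the sampled age. At least 10-fold higher or listed at 0 in control were 25 of 72 higher genes marked 3 d (34.7%) and 24 of 78 marked 4 d (30.8%), against 12 of 47 marked 12 h prepupa (25.5%), 7 of 52 marked 2 d (13.5%) and 3 of 43 marked white prepupa (6.98%). The white prepupa genes thus moved mostly in 1 direction with a modest median fold of 3.50, and the 3 d and 4 d genes had medians of 5.17 and 5.05. Blimp-1 carries the 4 d mark. The lower genes marked 2 d made up 58 of all 196 lower genes (29.6%). Of 12 transcription factor genes marked 2 d, 9 were lower and 3 higher, beside 58 lower and 52 higher among all genes marked 2 d. Of 18 cuticle genes marked 3 d, 15 were higher and 3 lower, beside 72.4% higher among all listed genes.

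Listed genes of phototransduction were mostly higher. A list of 34 light-sensing, chromophore and eye-specific genes held the corneal lens gene retinin but not the retinol dehydrogenase gene rdhB. Of the 34 genes 15 were in the tables, 14 higher (93.3%, against 72.4% of all listed genes) and 1 lower. The median fold was 7.28 among the higher ones, beside 4.21 for all higher genes. The summed counts of these 15 genes ranged from 102620 to 139405 in overexpression and from 12437 to 13447 in control. In these sums Arr2 alone averaged 54505 in overexpression and 3458 in control. Without retinin and with rdhB, 13 were higher (86.7%) and 2 lower, and the median fold of the higher ones was 6.19. The sums then ranged from 113177 to 157138 in overexpression and from 48584 to 53234 in control. Arr1 (chromosome 2L, 18078269 to 18081307), encoding an arrestin that binds activated rhodopsin, had 4698, 3559 and 3269 normalized counts in overexpression, against 6.05, 28.8 and 4.99 in control. The groups were far apart, and control replicate 2 was well above the other control libraries. The fold was 289.4 with all libraries and 696.0 without control replicate 2. Arr2 (chromosome 3L, 8647261 to 8648936), the other visual arrestin, had 54519, 60739 and 48258 in overexpression, against 3078, 3707 and 3588 in control, 15.8-fold higher with an adjusted p of 4.13e-82 in the authors' deposited table.

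Rhodopsin and its handling came next in this group. The gene for the blue-sensitive rhodopsin Rh5 was at low counts in both groups, 17.3, 17.9 and 11.2 in overexpression, against 3.36, 2.88 and 1.25 in control. ninaA, encoding the chaperone of the major rhodopsin, had 5996, 7653 and 4681 in overexpression, against 178.0, 212.1 and 219.6 in control, 30.1-fold higher. The genes for chromophore supply were also on the higher side. The carotenoid receptor genes ninaD and santa-maria were 8.54-fold and 2.30-fold higher, the carotenoid-cleaving enzyme gene ninaB 2.55-fold, and Pdh, a retinoid dehydrogenase gene of the pigment cells, 20.8-fold. Against these, rdhB, for another retinol dehydrogenase, was 2.48-fold lower, at 13252, 20632 and 11947 in overexpression, against 35147, 37656 and 40700 in control.

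Downstream of rhodopsin, the channel gene trpl had 405.4, 165.9 and 282.9 normalized counts in overexpression, against 10.8, 9.60 and 8.73 in control. It was 29.4-fold higher. Gbeta76C, for the visual G protein beta subunit, was 3.56-fold higher, stops, which maintains phospholipase C levels, 3.18-fold, rtp, for the rhabdomere protein retinophilin, 4.26-fold and the lipid phosphatase gene laza 4.60-fold. The scaffold gene inaD was the only lower member, with 910.0, 611.1 and 683.1 in overexpression, against 2449, 1908 and 1821 in control, 2.80-fold lower. The authors marked inaD as peaking at 4 d, as they did Arr1, Arr2, trpl and Gbeta76C. Rhodopsin genes other than Rh5, and trp, norpA and Galphaq, had no entry. Of 9 genes for the rhabdomere and the space between rhabdomeres, eys, which encodes the secreted matrix protein of that space, was 3.40-fold lower and prom, encoding its membrane partner prominin, 2.72-fold lower. None of the 9 was listed as higher.

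**Figure D4:**
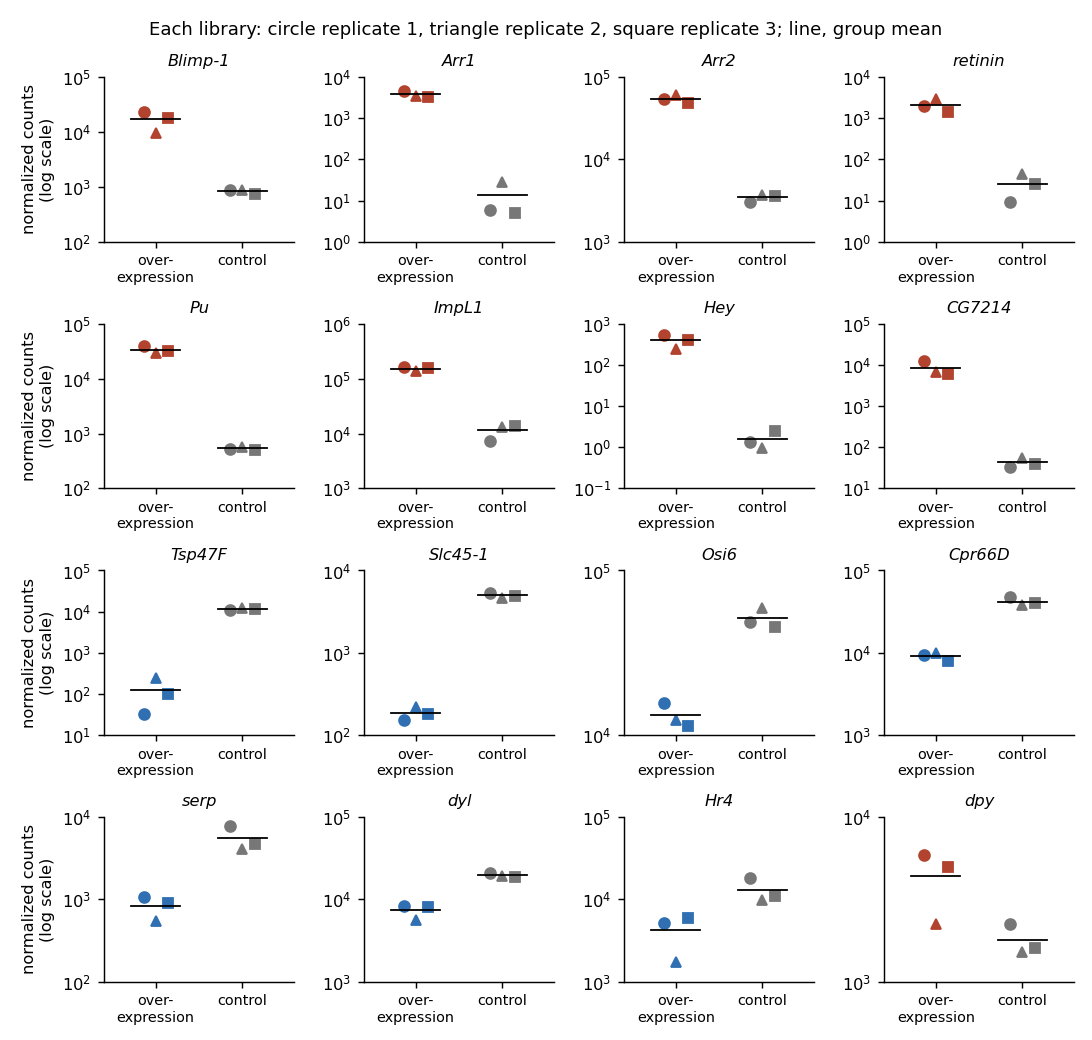
Normalized counts (y axis, log scale, with its own range in each panel) of 16 listed genes in the 3 overexpression libraries (left in each panel) and the 3 control libraries (right). Lines are group means; Arr1 and retinin show the raised control replicate 2, Hr4 the low overexpression replicate 2, and dpy the overlapping pair at 2249.17 and 2249.18.

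Pigment and neurotransmitter genes showed members on both sides. Pu (chromosome 2R, 21175315 to 21182608), encoding GTP cyclohydrolase at the entry of pteridine synthesis, had 38774, 28785 and 31527 normalized counts in overexpression, against 530.1, 568.1 and 510.2 in control. All libraries of a group lay within a narrow range, the fold was 61.6, and the adjusted p of 1.69e-173 in the authors' deposited table was the smallest of all listed genes. Purine synthesis precedes pteridines, and its genes ade3, ade5 and ras, looked up after their values were seen, were 6.63-, 2.63- and 2.27-fold higher. The pigment transporter genes w and bw were 3.21- and 2.31-fold higher and kar 10.4-fold. Counts of w cannot tell the endogenous gene from any copy on the UAS insert, which only overexpression animals carried. Whether that insert holds a copy of w is not known here. The peroxidase gene cd, which acts in ommochrome formation, was 2.38-fold lower at 8049, 6523 and 6623 in overexpression, against 17743, 16675 and 15998 in control. All 4 higher pigment genes and cd together were 5 of the 26 entries on the pigment list, and the other entries were not in the tables.

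Photoreceptors use histamine, and 4 genes of its synthesis and recycling were higher, as were 72.4% of all listed genes. Hdc and CarT came from a list of 11 histamine and synapse genes, of which 3 were higher and 4 lower. The lower ones were nAChRalpha7, nAChRalpha5, Rim and nAChRalpha1. Hdc, encoding histidine decarboxylase, was 8.71-fold higher, at 606.7, 432.5 and 397.2 normalized counts in overexpression, against 71.2, 45.1 and 48.7 in control. CarT, the carcinine transporter gene, was 3.91-fold higher. The genes t and e, whose products release and conjugate histamine and also act in tanning of cuticle, were 8.99- and 7.27-fold higher. In t the overexpression libraries held 6234, 5203 and 4901, against 588.5, 584.4 and 644.9 in control. Other genes of the tanning list were yellow-f and yellow-h, 2.90- and 2.86-fold higher, and yellow-e, 4.88-fold lower.

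Cuticle and chitin genes had members on both sides. Of the Cpr family, whose members bind chitin, 7 genes were higher with a median fold of 19.3 and 4 were lower with a median fold of 4.40. The share that was higher, 63.6%, lay below the 72.4% of all listed genes. Cpr50Cb was 108.0-fold higher, at 1047, 713.2 and 634.1 normalized counts in overexpression, against 6.05, 8.64 and 7.48 in control. Cpr47Ef, Cpr56F and Cpr62Bc were 53.1-, 19.4- and 19.3-fold higher. Each of these 3 folds changed when 1 control library was left out. Cpr47Ef had only 1.34, 0 and 2.49 normalized counts in control. Its fold was 101.2 without control replicate 3 and 35.4 without control replicate 2. Without control replicate 2 the folds of Cpr56F and Cpr62Bc were 32.5 and 42.6. Cpr72Ec was 9.27-fold higher, and 15.5-fold without control replicate 1.

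The lower Cpr genes included the one with the highest counts in control. Cpr66D (chromosome 3L, 8640439 to 8643584) had 9303, 9885 and 7900 normalized counts in overexpression, against 47173, 38373 and 40030 in control, 4.64-fold lower. Cpr49Ae was 14.8-fold lower at 17.3, 44.7 and 23.5 in overexpression, against 294.3, 533.6 and 435.4 in control. The corneal lens gene retinin (chromosome 3L, 16331933 to 16332789) was on the other side, with 1935, 2899 and 1390 in overexpression, against 9.41, 43.2 and 25.0 in control. Its fold was 80.3 with all libraries and 120.7 without control replicate 2. The authors marked retinin as 4 d and Cpr66D as 2 d.

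Of 12 listed genes for chitin synthesis, modification, breakdown and binding, 4 were higher and 8 lower, while 27.6% of all listed genes were lower. The chitin synthase gene kkv (chromosome 3R, 5378093 to 5392866) had 1535, 924.9 and 1711 normalized counts in overexpression, against 7272, 5472 and 5615 in control, 4.40-fold lower. The chitin deacetylase gene serp had 1058, 547.3 and 915.9 in overexpression, against 7889, 4138 and 4768 in control, 6.66-fold lower, and its neighbour verm, also a deacetylase gene, was 3.64-fold lower. Cda5 was 4.02-fold and the chitinase family gene Cht7 3.95-fold lower. The chitin-binding genes obst-A and Gasp were 2.96- and 2.65-fold lower.

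The paralogous pair reb and exp, both needed for chitin deposition, took opposite sides. reb had 81.1, 33.2 and 54.1 normalized counts in overexpression, against 18.8, 10.6 and 7.48 in control, 4.57-fold higher. exp had 478.2, 218.2 and 438.1 in overexpression, against 1233, 710.1 and 814.6 in control, 2.43-fold lower. The remaining higher chitin genes were ChLD3 (4.20-fold), the chitinase gene Cht10 (3.28-fold) and the chitinase-like gene Idgf6, at 287.9, 299.8 and 201.2 in overexpression, against 96.7, 97.9 and 108.5 in control. Of the zona pellucida domain proteins, which tie the apical membrane to the matrix, dyl was 2.68-fold lower, at 8345, 5647 and 8149 in overexpression, against 21028, 19517 and 18855 in control. In the same list pio was 25.5-fold higher, qsm 2.85-fold and dpy 2.45-fold.

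The Osiris genes, insect membrane protein genes that are active in cells secreting cuticle, were also divided, 4 higher and 5 lower; the family was chosen after its values were seen. Osi6 (chromosome 3R, 6234708 to 6237181), the lower gene with the highest mean count, had 15763, 12338 and 11349 normalized counts in overexpression, against 48950, 59420 and 45504 in control, 3.90-fold lower. Osi13, Osi11, Osi5 and Osi8 were 6.85-, 4.75-, 2.92- and 2.68-fold lower. Osi19 had 748.8, 783.3 and 653.5 in overexpression, against 2.02, 3.84 and 7.48 in control, 163.8-fold higher and 248.6-fold without control replicate 3. Osi14, Osi21 and Osi10 were 9.38-, 5.21- and 4.87-fold higher. Without 1 control library the fold was 15.4 for Osi14 (replicate 1) and 8.01 for Osi21 (replicate 2). Among the lower members Osi11, Osi6, Osi5 and Osi8 are marked 2 d, while Osi19 is marked 3 d and Osi14 1 d.

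Tetraspanin genes, for 4-pass membrane proteins and likewise chosen after seeing the values, held the largest fold of the lower side. Tsp47F (chromosome 2R, 11377193 to 11379177) had 32.8, 244.9 and 101.1 normalized counts in overexpression, against 10762, 12177 and 11869 in control. The control libraries lay close together while the overexpression libraries spread widely, with replicate 2 the highest. The fold was 91.9 with all libraries and 173.3 without overexpression replicate 2. The 6 other listed tetraspanin genes were higher, from lbm at 2.70-fold to Tsp29Fb at 38.5-fold. Tsp42Ej, Tsp42Ek, Tsp42El and lbm are consecutive protein-coding genes on chromosome 2R, from 7040136 to 7051964. They were all higher, as were 72.4% of all listed genes.

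Among regulators, 14 transcription factor genes including Blimp-1 were higher and 15 lower. Hey (chromosome 2R, 7995438 to 7998278), a bHLH repressor gene of the Notch pathway, had 529.3, 250.1 and 405.4 normalized counts in overexpression, against 1.34, 0.96 and 2.49 in control. The fold was 247.3, from control values of only a few counts. Of 9 genes on the Notch response list only 3 were in the tables. Besides Hey, E(spl)m3-HLH was 3.12-fold and E(spl)m2-BFM 3.09-fold higher. No listed member was lower, while 72.4% of all listed genes were higher. CG11966 was 18.2-fold higher and the bZIP gene vri 8.12-fold. On the lower side CG7080 had 207.7, 238.6 and 175.6 in overexpression, against 5303, 4024 and 3978 in control, 21.4-fold lower.

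Of 24 genes on the ecdysone list, 4 were higher and 4 lower. The lower ones were 3 genes of transcription factors and 1 of an enzyme. The nuclear receptor gene Hr4 had 5131, 1729 and 5963 normalized counts in overexpression, against 18180, 9780 and 11122 in control, 3.05-fold lower with replicate 2 well below the other overexpression libraries. The nuclear receptor gene Eip78C and the Ets gene Eip74EF were 2.21- and 2.35-fold lower, and ImpL3, for lactate dehydrogenase, 2.44-fold. Without overexpression replicate 2, Eip78C was under 2-fold lower. The higher ones were vri, ImpL1, ImpE3 and ImpE1. ImpL1 (chromosome 3L, 13382765 to 13383999), the listed gene with the highest counts, had 163664, 135119 and 155766 in overexpression, against 7440, 13274 and 13666 in control, 13.2-fold higher. ImpE3 and ImpE1 were 2.77- and 2.55-fold higher. The hormone receptor genes EcR and usp and the Blimp-1 target ftz-f1 had no entry.

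Genes of the Toll cascade, chosen after their values were seen, were higher in 9 of 11 cases (81.8%, near the 72.4% of all listed genes). The protease gene psh had 504.7, 514.1 and 401.3 normalized counts in overexpression, against 0.67, 14.4 and 7.48 in control, 63.0-fold higher and 116.2-fold without control replicate 2. Its neighbour Hayan, a related protease gene on the X chromosome, was 32.5-fold higher. Further protease genes of the cascade, ea, SPE and modSP, were 18.2-, 12.5- and 4.22-fold higher, with SPE at 20.2-fold without control replicate 3, and grass was higher too. The serpin gene nec, whose product restrains the cascade, was 10.6-fold higher. The ligand genes spz6 and spz5 were 14.8- and 3.68-fold higher. The best known ligand gene, spz, was 2.84-fold lower, with 55.6, 40.8 and 87.8 in overexpression, against 187.4, 151.6 and 184.6 in control, and the transcription factor gene Dif was 2.41-fold lower.

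Detoxification genes, those of cytochrome P450, glutathione transferase and UDP-glycosyltransferase families, were higher in 20 of 22 cases (90.9%, against 72.4% of all listed genes), with a median fold of 3.31. Cyp6a16, Cyp4s3 and Cyp4e1 were 28.3-, 23.9- and 15.5-fold higher. All 8 glutathione transferase genes were higher, from GstD1 at 2.37-fold to GstZ1 at 5.16-fold. GstD1 had 22296, 27358 and 16405 normalized counts in overexpression, against 9441, 8548 and 9876 in control. The lower members were Cyp303a1 and Cyp4p1, 2.98- and 2.81-fold lower. Serpin and other immune genes were higher in 9 of 10 cases (90.0%, against 72.4% of all listed genes), with Spn47C 7.65-fold and the peptidoglycan receptor gene PGRP-LC 3.32-fold.

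Few markers of other cell types were listed, and most of these were higher, as were 72.4% of all listed genes. Of 14 hemocyte markers 4 were listed, srp, NimC2, NimC3 and NimC4, all higher by 3.39- to 5.72-fold, and their summed counts ranged from 937.4 to 1528 in overexpression and from 224.4 to 316.7 in control. Hml, He and eater had no entry. Of 9 glial markers wrapper, Tret1-1 and nrv2 were 3.19-, 3.01- and 2.32-fold higher, with sums of 10912 to 13935 in overexpression and 4770 to 5222 in control, and repo and moody had no entry. Of 19 muscle entries 3 were listed, with Zasp66 and Strn-Mlck 12.5- and 5.42-fold higher and TpnC25D 3.22-fold lower. Without 1 library these became 28.6 for Zasp66 (control replicate 2) and 5.82 for TpnC25D (overexpression replicate 2). None of 12 cone and pigment cell regulators was listed, and of 20 photoreceptor identity genes only boss, 2.37-fold higher, and salm, 2.52-fold lower. Of 10 fat body entries only Tsf1 was listed, which also encodes a circulating iron carrier. It was 2.30-fold higher, at 29576, 25825 and 21627 in overexpression, against 10853, 10820 and 11757 in control. Whether a changed share of such cells moved other genes was not tested.

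Ion channel and receptor-channel genes, grouped after the values were seen, had 8 higher and 10 lower members (55.6% lower, against 27.6% of all listed genes). The potassium channel gene slo had 415.4, 168.4 and 608.6 normalized counts in overexpression, against 2083, 1161 and 1578 in control, 4.04-fold lower. The acetylcholine receptor subunit genes nAChRalpha7 was 3.72-fold lower, nAChRalpha1 was also lower, and nAChRbeta3 4.50-fold higher. The sodium channel gene NaCP60E was 3.09-fold lower and the active-zone gene Rim 3.16-fold. In slo, NaCP60E, Rim and nAChRalpha1, overexpression replicate 2 was the lowest of the 3 and control replicate 2 the lowest of the control libraries. Besides trpl, the higher members were clumsy, a glutamate receptor gene at 36.7-fold, Ir68a at 7.64-fold, wtrw, pyx, nAChRbeta3, brv3 and NtR. The 10 lower channel genes are long, with a median exonic length of 10830 bases, against 2590 for all lower genes.

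Length ran through the comparison in a measurable way. The median exonic length was 1792 bases for higher genes and 2590 for lower genes, beside 1734 for all annotated protein-coding genes. Among 642 genes with an annotated length and a mean of at least 20 normalized counts, split into 3 equal groups by length, 81.8% of the shortest group (383 to 1541 bases) were higher, 79.0% of the middle group and 55.6% of the longest group (2532 to 71820 bases). Overexpression replicate 2 deviated from the mean of its group by a median log2 value of 0.34 in the shortest group and -0.40 in the longest group. Replicates 1 and 3 deviated the other way, by -0.15 and -0.19 in the shortest and 0.21 and 0.16 in the longest group. Deviations from the mean of the 3 libraries balance within each gene, so these opposite signs follow in part from replicate 2. Control libraries deviated by no more than 0.20 in any length group, in either direction. The part of this in the direction of single genes was not tested. Without overexpression replicate 2, 505 of the 514 higher genes and 187 of the 196 lower genes were still at least 2-fold apart, and the median folds were 4.03 and 2.94. The 9 lower genes that were then under 2-fold were fax, RhoGAP19D, ds, dysc, ths, Tbh, Eip78C, Nckx30C and fj.

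**Figure D5:**
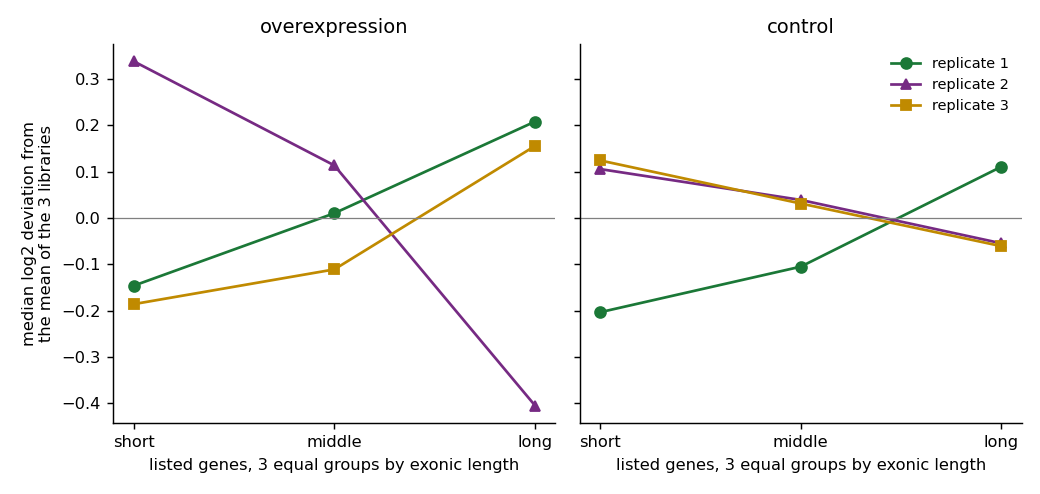
Median log2 deviation of each library from the mean of its group (y axis) for listed genes in 3 equal groups by exonic length (x axis), with overexpression on the left and control on the right. Overexpression replicate 2 runs from 0.34 in the shortest to -0.40 in the longest group. Replicates 1 and 3 run the other way, in part because deviations from a shared mean balance.

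The 3 genes picked for cilia, Zmynd10, for dynein assembly, Kif3C, for a kinesin, and Root, for the ciliary rootlet of sensory neurons, were lower. Their folds were 16.9, 5.36 and 5.07, with Zmynd10 at 26.0-fold without overexpression replicate 2. They are not a full list of cilium genes, and 27.6% of all listed genes were lower. Zmynd10 had between 4.55 and 14.03 normalized counts in overexpression, against 151.2, 125.7 and 139.7 in control. The growth factor genes Pvf1 and Pvf2 and their receptor gene Pvr were 3.26-, 2.85- and 2.46-fold higher, and egr, encoding the fly tumour necrosis factor, 6.31-fold. The gap junction genes Inx7 and Inx3 were 4.53- and 3.07-fold higher. Of genes that shape cell hairs, mwh and sha were 4.18- and 3.06-fold higher and jv 3.41-fold lower. These genes were all chosen after their values were seen.

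The listed genes were spread over the genome. Protein-coding members fell on chromosomes X, 2L, 2R, 3L and 3R in shares of 14.7%, 16.9%, 21.5%, 22.1% and 24.5%, beside 15.7%, 19.1%, 20.5%, 19.6% and 24.5% of annotated genes. Runs of at least 3 consecutive listed protein-coding genes numbered 7 with 22 genes. In 4 runs all genes were higher, in none all lower, and 3 were mixed, while 72.4% of all listed genes were higher. Whether neighbours shared a direction beyond that share was not tested. One of the uniform runs was Hayan, psh and CG15046 (chromosome X, 18479983 to 18489620). A mixed run held Gbeta76C, verm and serp (chromosome 3L, 19687637 to 19708015), with Gbeta76C higher and both deacetylase genes lower.

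The RNAi comparison used the same control libraries, so the 2 sets of values are not independent. Of the 710 genes 179 were also listed after RNAi, which is 25.2% of the overexpression list and 48.0% of the RNAi list. Among them 78 were higher in both, 61 lower in both, 27 higher in overexpression and lower in RNAi, and 13 lower in overexpression and higher in RNAi. ImpL1 averaged 151516 in overexpression, 2713 in RNAi and 11460 in control. CG2016 averaged 45202 in overexpression, 865.0 in RNAi and 2059 in control. The opposite pattern was found for obst-A, verm and Gasp. The averages of obst-A were 2148 in overexpression, 19103 in RNAi and 6357 in control, and those of verm 3248 in overexpression, 25890 in RNAi and 11834 in control.

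Several genes named above lay on the same side of control in both genotypes. Pu averaged 33029 normalized counts in overexpression, 1208 in RNAi and 536.1 in control. kar averaged 12521 in overexpression, 7614 in RNAi and 1207 in control. On the lower side Osi6 averaged 13150 in overexpression, 19977 in RNAi and 51291 in control, and dyl 7380 in overexpression, 9618 in RNAi and 19800 in control. CG14624, an X-linked gene that the authors class as unknown, averaged 2584 in overexpression, 58.4 in RNAi and 24512 in control. The RNAi tables mark genes with a Blimp-1 site. Such a mark was set for 35 of the 105 shared genes higher in overexpression (33.3%) and for 41 of the 74 lower ones (55.4%). Among those higher in overexpression, it was set for 34.6% of genes higher in RNAi and 29.6% of genes lower in RNAi. Among those lower in overexpression, it was set for 69.2% of 13 genes higher in RNAi and 52.5% of 61 genes lower in RNAi. The share over all genes listed after RNAi was not computed, so these shares have no background value. Genes listed in overexpression alone carry no such column. The sources used here do not say how the marks were made.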

How the data were processed

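The submitters' processing notes name STAR 2.6.1d, Picard 2.18.20, Subread 1.6.3, DESeq2, bedtools 2.26.0 and the build dm6, without settings. The authors deposited normalized counts per library (a signal without read counts), a log2 fold change, an adjusted p-value, a function and a stage for each gene. The deposited log2 fold changes ran control over overexpression and were turned round. Every listed gene had a deposited absolute value of 1.00 or more, with 0.0499 as the highest adjusted p. Depth is unknown, so no counting intervals are given.

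Folds are ratios of mean normalized counts without a pseudocount; the SE of a log2 ratio comes from both SDs. A planned count test was not run because whole reads could not be recovered reliably from the deposited values. In its place limma 3.58.1 (R 4.3.3) was fitted to log2(normalized count + 1) after being tested on simulated data. Of 710 rows, 670 were placed by FlyBase identifier in the Ensembl annotation BDGP6.54, which uses dm6 coordinates. The symbols ZnT33D and Myo31DF, altered in the tables, were restored.

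Members and gene lists were chosen with earlier results of these data known. Named genes were Blimp-1; in each direction the 6 with the highest mean, the 4 with the smallest deposited adjusted p, the largest fold per function class and stage at a mean of at least 100, the 2 closest to the threshold and the 2 with the widest spread among overexpression replicates; and up to 4 per list. Further genes named as list, class or family members were chosen after their values were seen.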

Additional observations from a re-analysis of the deposited data

How the results depend on the processing

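All 52 alternative values of the overall results (counts at least 2-fold apart, non-overlapping libraries, median log2 ratios, and limma calls) stayed within 1.5 times or 1 SD of the reported ones and none changed direction. Genes at least 2-fold higher numbered 492 to 514 and lower 184 to 196. The alternatives were medians in place of means, a pseudocount of 1, a minimum mean of 20 normalized counts and leaving out each library. The lowest numbers, 492 and 184, are the genes that passed the minimum mean. Because the genes were selected on these same libraries, this stability and that of the limma calls follow in large part from the selection. Of 906 alternative values for 101 named genes, 3 moved by more than 1 SD and 0 changed sign. Where a fold printed above moved by over 1.5 times without 1 library, the other value stands beside it. The limma calls numbered 707 to 710 of 710 without 1 library, 676 of 676 after the filter, and 710 with a pseudocount of 10, which was added after seeing the data. With the replicate number as a block limma also called 710; deviations of same-numbered libraries correlated at 0.42, 0.21 and -0.0008, so the numbers were not taken as pairs. The planned TMM and DESeq2 fits were not run, since they need read counts. The chief limit is that only selected genes have values.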
